A study of Mus musculus with 16 samples.

Results

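The genes described here were Cxcr5, Bcl6, Tox2, Sh2d1a, Izumo1r, Slamf6, Pou2af1, Sostdc1 and S1pr2, which belong to the transcriptional program of follicular helper T (Tfh) cells. They were chosen by name for that known role, with earlier results of these data known, and they were 9 of 31053 genes measured in the lung and mesenteric lymph node (MLN) run and 9 of 32285 genes measured in the node run. All mice were 4get animals on C57BL/6, a reporter strain in which enhanced GFP marks cells that have opened the Il4 locus (IL-4eGFP+), and all had received 500 Nb larvae 10 days earlier, so no uninfected sample was compared. In the lung and MLN run, IL-4eGFP+ CD4+ cells were sorted from perfused lung, where some intravascular cells remained, and from MLN of 2 mice of 13 weeks. In the node run, IL-4eGFP+ and IL-4eGFP- CD4+ cells were sorted from the mediastinal lymph node (medLN), which drains the lung, and from MLN of 2 further mice of 10 weeks. Each sort gate of the node run was 1 library whose 4 samples were told apart by hashtag antibodies, so gate and library cannot be told apart.

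Tfh cells are CD4+ T cells that help B cells in lymphoid follicles. Antigen and B cell contact drive expression of the transcriptional repressor BCL6, CXCR5 on the surface brings the cell toward the follicle, and adhesion and signalling molecules of the SLAM family hold it to the B cell. In helminth infection, Tfh cells are a main source of IL-4 in lymph nodes, so an IL-4 reporter marks them as well as tissue Th2 cells.

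The 12 samples held 21462 cells after filtering, and between 2789854 and 14442133 unique molecular identifiers (UMIs, 1 per captured transcript) were summed per sample. The median UMI count of a cell was 5766 to 6910 in lung and 4971 to 4980 in MLN of the same run. In the node run it was 3166 to 3666. Some shares of cells are therefore also given after each cell was thinned to 1000 UMIs. Levels are counts per 1000000 UMIs of the sample (CPM). Summed markers of CD4 T cells lay between 2341 and 3211 CPM in all 12 samples. B cell markers summed to 93.7 to 127 CPM in lung and 241 to 265 CPM in MLN of the same run, where Ms4a1 and Ebf1 were at 0 in all 4 samples, and to 177 to 317 CPM in the node run. In summed samples, fewer cells that express a gene and less RNA of it per cell cannot be told apart.

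Promoter sequence was available for 6 of the 9 genes, and those of Bcl6 and S1pr2 are shown because BCL6 defines the lineage and because the S1pr2 window was the only one with the cyclic AMP response letters. Each run is the 250 bases before a RefSeq transcript start, read on the strand of the gene in build GRCm38.p6. The Bcl6 window lies at chr16:23988853-23989102 on the minus strand, next to the start of the gene, and its GC content was 58.4%. The S1pr2 window lies at chr9:20976794-20977043 on the minus strand, with a GC content of 59.2%.
Bcl6: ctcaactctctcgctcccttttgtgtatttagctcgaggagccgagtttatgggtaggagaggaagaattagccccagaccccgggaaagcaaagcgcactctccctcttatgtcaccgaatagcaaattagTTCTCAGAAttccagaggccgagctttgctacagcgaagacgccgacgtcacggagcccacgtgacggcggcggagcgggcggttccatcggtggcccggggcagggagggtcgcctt
S1pr2: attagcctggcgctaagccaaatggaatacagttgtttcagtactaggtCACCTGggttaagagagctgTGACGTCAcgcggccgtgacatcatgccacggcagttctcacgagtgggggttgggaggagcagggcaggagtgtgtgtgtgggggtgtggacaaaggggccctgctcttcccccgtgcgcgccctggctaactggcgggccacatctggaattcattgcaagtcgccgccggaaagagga
In the Bcl6 window the capitals mark a stretch that fits TTCNNAGAA, the core letters of a BCL6 site. Any such stretch also fits TTCNNNGAA, the core letters of a STAT site, so the STAT match followed from the first. On both strands, 4.43% of 32851 promoter windows of the same length held the first motif and 7.02% the second. Another Bcl6 window, at chr16:23981284-23981533, also held both motifs and is not shown. In the S1pr2 window the capitals mark the E-box letters CACCTG, held by 17.2% of windows, and the cyclic AMP response letters TGACGTCA, held by 1.55%. The octamer ATGCAAAT, through which POU2AF1 acts with its partner factors, had 0 matches in the 11 windows of these 6 genes and in 1.6% of all windows. These are matches of letters only.

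The first comparison asked how far IL-4eGFP+ cells of lung and MLN of the same 2 mice differed in the program. By the study's methods, lung tissue was digested with enzymes and its cells purified on Percoll, steps not described for the nodes. Organ and tissue processing therefore cannot be told apart here. Each of the 9 genes was lower in lung, by 0.74 to 6.78 on the log2 scale, at an adjusted p below the threshold of 0.05 (edgeR's quasi-likelihood test with Benjamini-Hochberg adjustment). Of all 10588 genes tested in this comparison, 31.0% passed. The median over the 9 genes was -2.91, against -0.01 over all genes tested. For each gene both mice were lower in lung, and the lung and MLN values did not overlap. How many of all genes tested were split in this way was not counted, and 14.0% of them passed as lower in lung. Summed type 2 effector markers were 1581 to 2147 CPM in lung and 609 to 628 CPM in MLN, summed proliferation markers 188 to 246 against 108 to 138 CPM and summed CD4 T cell markers 2421 to 2471 against 3128 to 3211 CPM, and the part of these in the 9 differences was not tested.

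Among the surface receptors, Cxcr5, the receptor for the follicular chemokine CXCL13, stood at 6.13 and 2.15 CPM in lung and at 143 and 124 CPM in MLN. That was a log2 difference of -4.58 (SE 0.261, adjusted p = 2.6e-06). A Cxcr5 UMI was found in 3.23% and 0.962% of lung cells and in 40.5% and 36.1% of MLN cells. Thinned to 1000 UMIs, the shares were 0.0925% and 0.240% in lung and 12% and 12.1% in MLN, so the gap remained at equal depth. S1pr2, the sphingosine 1-phosphate receptor that keeps cells within the germinal centre, was at 12.6 and 15.8 CPM in lung and at 24.9 and 26.3 CPM in MLN. Its log2 difference of -0.74 (SE 0.159, adjusted p = 0.00685) was the smallest of the 9 and did not pass in DESeq2 (adjusted p = 0.0754). A UMI of S1pr2 was found in 9.52% and 10.1% of lung cells and in 12.6% and 13.9% of MLN cells. Thinned to 1000 UMIs, its shares were 1.02% and 1.68% in lung and 2.64% and 2.52% in MLN. Izumo1r, which encodes folate receptor 4, a surface protein of Tfh and regulatory T cells, was at 104 CPM in both lung samples and at 919 and 936 CPM in MLN, a log2 difference of -3.02 (SE 0.129, adjusted p = 5.8e-07). It was detected in 31.1% and 34.4% of lung cells against 90.7% and 87.8% of MLN cells.

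Both SLAM genes among the 9 were lower in lung. Slamf6, a self-binding receptor of the family, was at 61.6 and 79.2 CPM in lung and at 333 and 301 CPM in MLN (log2 difference -2.06, SE 0.128, adjusted p = 3.9e-06). Sh2d1a, which encodes SAP, the adaptor through which SLAM receptors signal, was at 73.0 and 101 CPM in lung and at 467 and 473 CPM in MLN (log2 difference -2.32, SE 0.137, adjusted p = 2.8e-06). Other SLAM receptors of the pathway list went both ways, Cd84 by -0.63 (adjusted p = 0.00463), Ly9 by -0.92 (adjusted p = 0.00523) and Slamf1 by 1.05 (adjusted p = 7.7e-04). Sh2d1a and Slamf6 were still detected in lung, Sh2d1a in 29.3% and 35.1% of cells and Slamf6 in 21.0% and 26.4%.

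Among the nuclear factors, Tox2, an HMG-box factor that supports Tfh differentiation, was at 19.2 and 14.3 CPM in lung and at 155 and 137 CPM in MLN (log2 difference -2.91, SE 0.170, adjusted p = 2.8e-06). Bcl6, the repressor that defines the lineage, was at 12 and 12.9 CPM in lung and at 31.0 and 34.4 CPM in MLN, a smaller log2 difference of -1.24 (SE 0.155, adjusted p = 3.2e-04). After thinning it was -0.79 and no longer passed (adjusted p = 0.0774). Pou2af1, a coactivator of octamer-binding factors, was at 2.12 and 1.08 CPM in lung, which rested on 18 and 3 UMIs, and at 17.0 and 15.7 CPM in MLN (log2 difference -2.99, SE 0.305, adjusted p = 8.8e-05). Both lung values lay below both MLN values for each of the 3 factors, a split that was not counted over all genes tested.

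Sostdc1, a secreted antagonist of BMP and WNT signalling, was nearly undetected in lung. It was at 67.3 and 90.7 CPM in MLN, at 0.825 CPM in lung sample 1 and at 0 in lung sample 2, where 0 of 416 cells allows a share of up to 0.721% by 3 counts (exact 95% upper limit 0.883%). All 7 lung UMIs came from 1 cell. The ratio of MLN to lung was 117, with a 95% counting interval of 56.8 to 292 from 1376 and 7 UMIs, and the fitted log2 difference was -6.78 (SE 0.366, adjusted p = 1.9e-06). Without lung sample 1 the fitted value was -12.12, a number set by the prior count because the remaining lung sample held none. The gene was sparse and intense in MLN: 5.93% and 5.57% of cells held it, with a mean of 6.66 and 9.62 UMIs per positive cell. In MLN sample 1, 35 cells with more than 10 UMIs carried 55.6% of all Sostdc1 UMIs, and the 146 positive cells fell into 132 T cell clones.

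**Figure D1:**
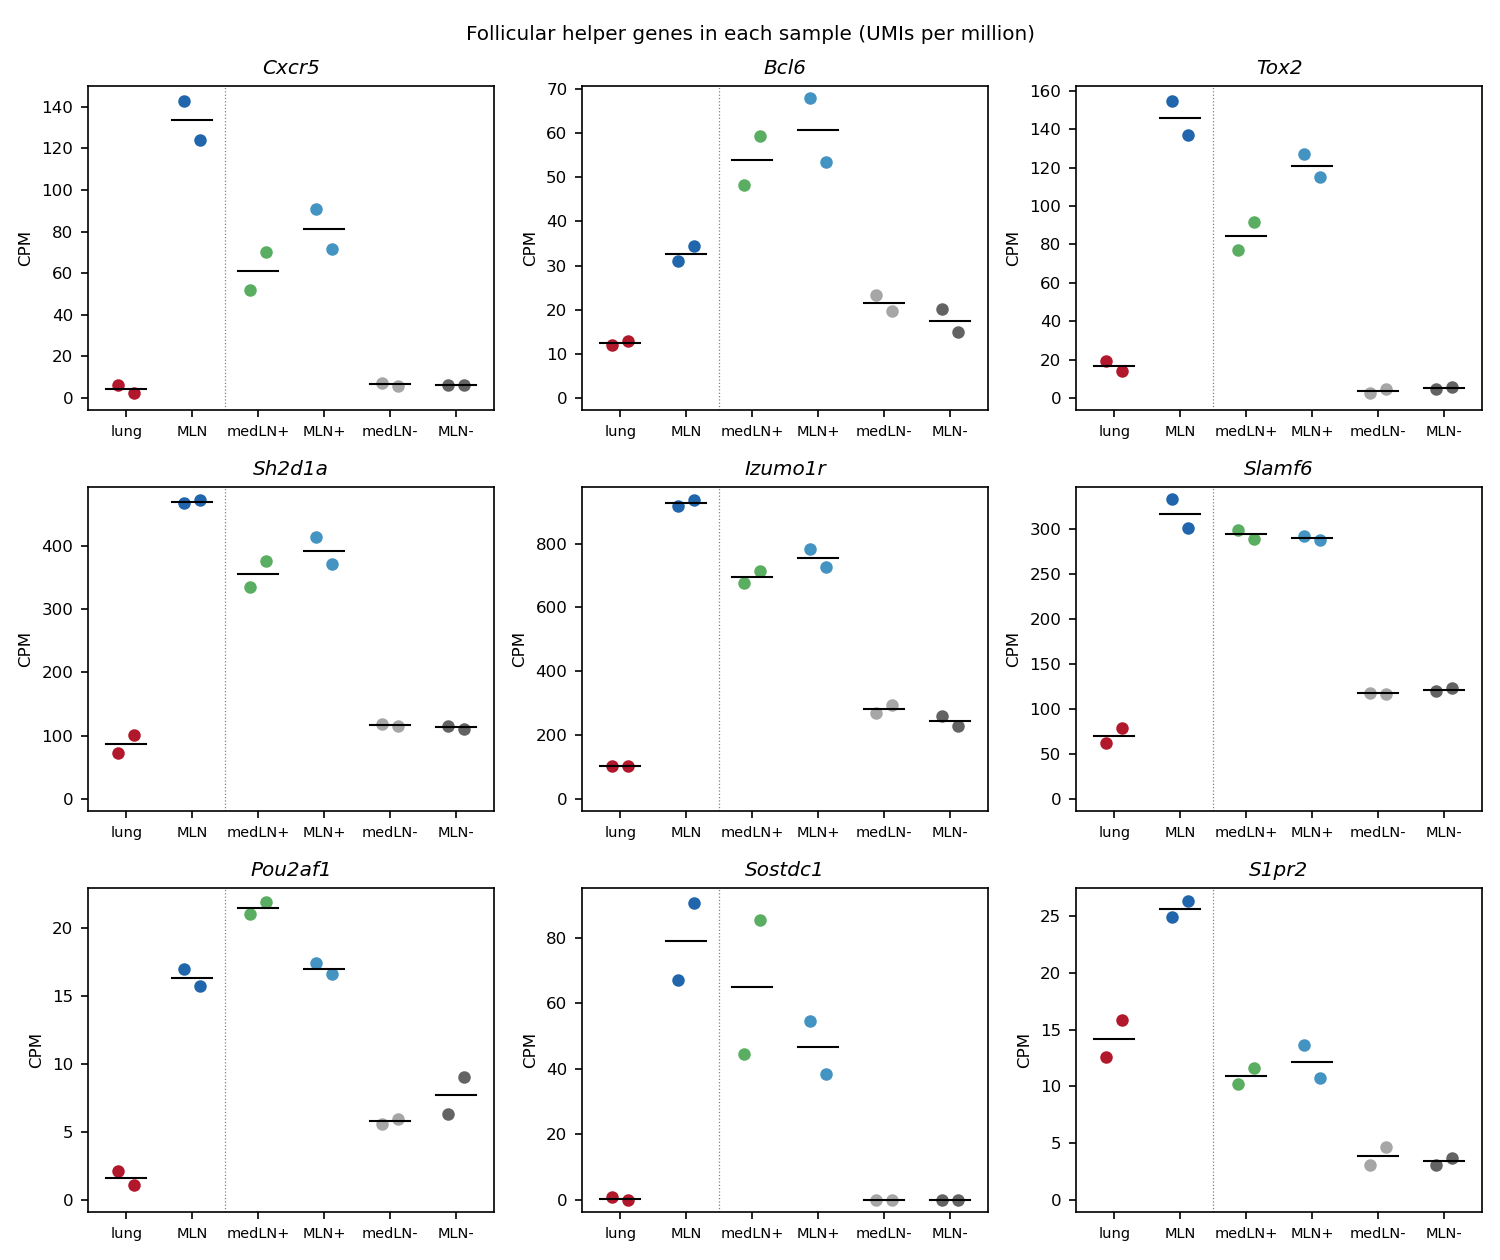
Level of each of the 9 genes in each sample, in CPM; points are samples, lines are means of 2, the dotted line separates the lung and MLN run from the node run, and + and - are the IL-4eGFP gates. Every gene is lower in both lung samples than in both MLN samples, and lower in the 4 IL-4eGFP- samples than in the 4 IL-4eGFP+ samples of the node run.

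Other genes of the pathway moved in both directions between lung and MLN. Of 32 further Tfh pathway genes, 31 were tested, and 7 rose, 17 fell and 7 did not pass in lung, with a median log2 difference of -0.63. The 7 that rose were Rgs16 (2.52), Irf4 (1.96), Cd40lg (1.35), Icos (1.23), Slamf1 (1.05), Cxcr4 (1.05) and Hif1a (1.04). Over all genes tested, 1803 rose and 1481 fell. Of 19 genes that oppose the program or mark exit from it, 13 rose, 1 fell and 5 did not pass, with a median of 1.11. Ascl2, a factor that induces Cxcr5, was at 0.118 and 0 CPM in lung, from 1 UMI, and at 7.55 and 12.1 CPM in MLN, an MLN to lung ratio of 97.3 with a counting interval of 17.2 to 3865. Id3, an inhibitor of E proteins, was at 10.1 and 15.4 CPM in lung and at 353 and 361 CPM in MLN (log2 difference -4.75, SE 0.161, adjusted p = 2.4e-07). Il21, the cytokine by which Tfh cells help B cells, was at 1.30 and 0.717 CPM in lung and at 12 and 11 CPM in MLN (log2 difference -3.16, SE 0.344, adjusted p = 1.4e-04). Tcf7, which acts upstream of Bcl6, fell by 1.89 (SE 0.118, adjusted p = 4.1e-06).

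Most genes of the opposing list were higher in lung, and this list was chosen with earlier results of these data known. The 1 that fell was Stat5b (log2 difference -0.47, SE 0.123, adjusted p = 0.0174). Il1rl1, the IL-33 receptor of effector Th2 cells, was at 455 and 258 CPM in lung and at 10.6 and 15.3 CPM in MLN (log2 difference 5.03, SE 0.327, adjusted p = 5.1e-06). Ccr2, a receptor of inflammatory homing, was at 272 and 281 CPM against 20.1 and 20.7 CPM (log2 difference 3.90, SE 0.125, adjusted p = 2.0e-07). Prdm1, which encodes BLIMP-1, the antagonist of BCL6, rose by 2.27 (SE 0.256, adjusted p = 1.7e-04). The egress receptors Ccr7 and S1pr1 also rose, by 1.15 (adjusted p = 8.3e-05) and by 0.96 (adjusted p = 0.00651). Pdcd1, the inhibitory receptor PD-1, did not follow either list. It was at 282 and 113 CPM in lung and at 197 and 193 CPM in MLN, so the groups overlapped (log2 difference 0.21, SE 0.338, adjusted p = 0.667). Its sign rested on 1 library: without lung sample 1 it was -0.73 (adjusted p = 9.2e-04), and without lung sample 2 it was 0.74 (adjusted p = 3.1e-04).

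The T cell receptor sequences allowed the organs to be compared over clones found in both. UMIs were summed over all cells of these clones in each organ and mouse, so single clones were not compared. In mouse 1, 105 clones were found in both organs, with 142 lung cells and 186 MLN cells, and in mouse 2 there were 21 such clones, with 32 and 22 cells. In these clones Izumo1r was at 111 CPM in lung and at 734 CPM in MLN of mouse 1, and at 110 and 771 CPM in mouse 2. Cxcr5 was at 6.32 CPM in lung and at 110 CPM in MLN of mouse 1, and at 0 and 122 CPM in mouse 2, where a count of 0 allows up to 11.8 CPM. In the other clones of mouse 1, Izumo1r was at 103 and 935 CPM and Cxcr5 at 6.1 and 146 CPM, so the organs stood apart in both kinds of clone. Tox2 was at 14.2 against 142 CPM in mouse 1 and at 7.83 against 99.2 CPM in mouse 2. Sh2d1a was at 52.9 against 459 CPM and at 58.8 against 481 CPM. Slamf6 was at 51.3 against 307 CPM and at 50.9 against 267 CPM. These 5 genes were each lower in lung in both mice.

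The sparser genes reached the counting limit in mouse 2. Sostdc1 was at 0 CPM in the lung cells of shared clones in both mice, and at 151 and 153 CPM in their MLN cells, although the MLN value of mouse 2 came from 1 cell. Bcl6 was at 4.74 against 23.6 CPM in mouse 1 but at 15.7 against 15.3 CPM in mouse 2, on 4 and 2 UMIs. Pou2af1 was at 0.790 against 24.5 CPM in mouse 1 and at 3.92 against 0 CPM in mouse 2, where 1 UMI was found in all. S1pr2 was at 11.8 against 33.2 CPM in mouse 1 and at 11.8 against 15.3 CPM in mouse 2, on 3 and 2 UMIs. For these genes no difference could be read in the shared clones of mouse 2 at this depth.

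**Figure D2:**
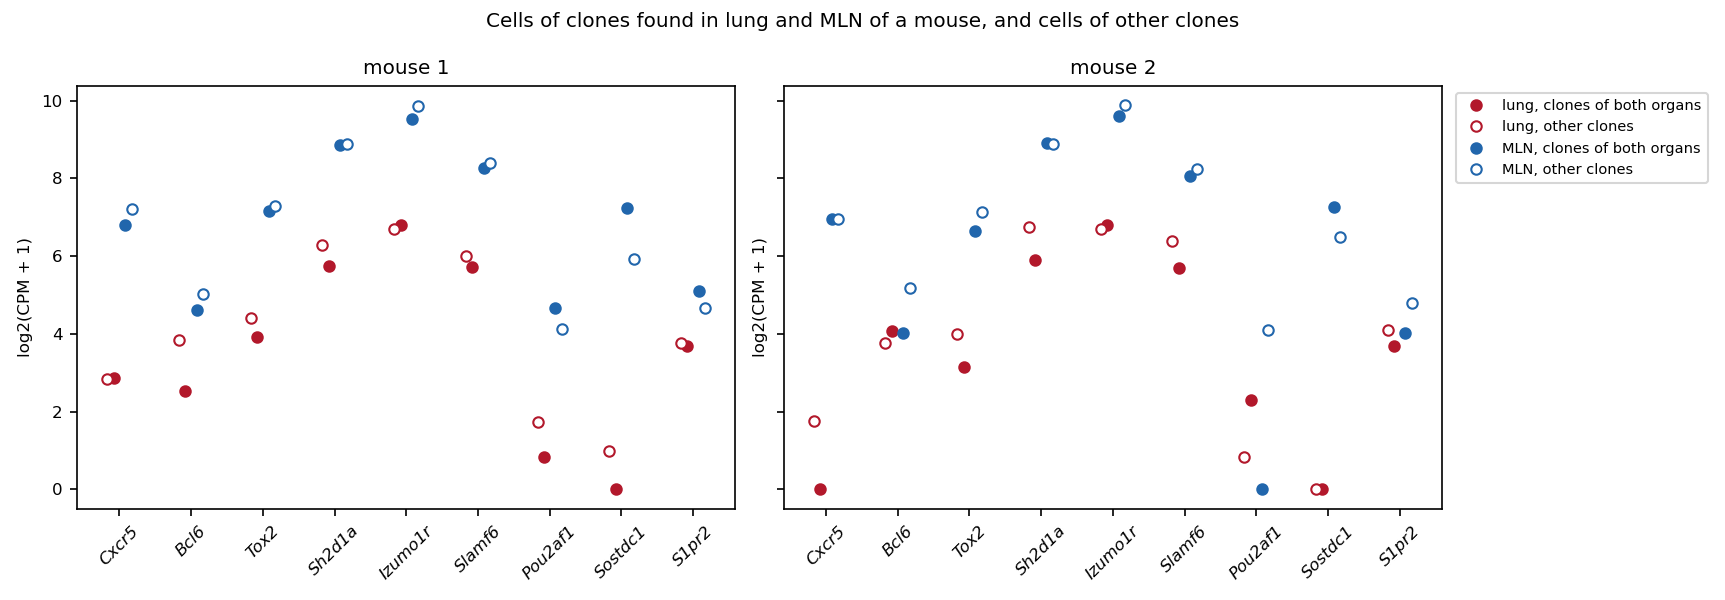
Level of each gene, as log2(CPM + 1), in lung (red) and MLN (blue) cells of clones found in both organs of a mouse (filled) and of other clones (open); each point is a sum over the cells of 1 class in 1 mouse. Cxcr5, Tox2, Sh2d1a, Izumo1r and Slamf6 are lower in lung in shared and in other clones of both mice. In shared clones of mouse 2 the lung value of Tox2 rests on 2 UMIs and the MLN value of Sostdc1 on 1 cell. Bcl6 and Pou2af1 rest there on 6 UMIs and 1 UMI.

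The node run asked whether the program differed between the lung-draining and the gut-draining node. In IL-4eGFP+ cells 1 of the 9 genes passed, against 1.28% of 11263 genes tested. Tox2 was at 77.0 and 91.6 CPM in medLN and at 127 and 115 CPM in MLN, a log2 difference of -0.53 (SE 0.090, adjusted p = 0.0331). This call was lost when any 1 of the 4 samples was left out, with adjusted p between 0.0522 and 0.252, and when low counts were not filtered (adjusted p = 0.108). Cxcr5 was at 51.8 and 70.1 CPM in medLN and at 90.7 and 71.6 CPM in MLN, without overlap but with an adjusted p of 0.267 (log2 difference -0.42, SE 0.144). Pou2af1 lay on the other side, at 21.0 and 21.9 CPM in medLN and at 17.4 and 16.6 CPM in MLN (log2 difference 0.33, SE 0.100, adjusted p = 0.213), and 1 cell with 36 UMIs held 18.1% of its UMIs in medLN sample 1. Sostdc1 was at 44.5 and 85.4 CPM in medLN and at 54.5 and 38.6 CPM in MLN, and these values overlapped (log2 difference 0.47, SE 0.265, adjusted p = 0.538).

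Over the 9 genes the median was -0.15, against 0.00 over all genes tested. The other 5 genes had log2 differences between -0.18 and 0.01, with standard errors of 0.049 to 0.163. Slamf6 was the most even of them, at 299 and 289 CPM in medLN and at 292 and 288 CPM in MLN (log2 difference 0.01, SE 0.052, adjusted p = 0.973). Izumo1r was at 678 and 713 CPM against 782 and 726 CPM, and its groups did not overlap (log2 difference -0.13, SE 0.049, adjusted p = 0.336). At an unadjusted p below 0.05, Cxcr5, Izumo1r, Pou2af1 and Tox2 passed, that is 4 of the 9. The share of all genes tested below that unadjusted p is not given here, so this count is not read as a result about the 9. DESeq2 called 1 gene, Tox2.

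In IL-4eGFP- cells 0 of the 8 genes tested passed in edgeR, and 0 in DESeq2, against 0.178% of 10684 genes tested in edgeR. At an unadjusted p below 0.05, 1 gene passed, Izumo1r, with 268 and 293 CPM in medLN and 259 and 229 CPM in MLN (log2 difference 0.15, SE 0.065, adjusted p = 0.769). Sostdc1 was not tested because the 4 samples held 1 UMI. The difference between the organs was also compared between the gates as an interaction: 0 of the 9 genes passed in edgeR and 0 in DESeq2, against 0.156% of 11535 genes tested, with 2 genes, Izumo1r and Pou2af1, below an unadjusted p of 0.05. The interaction for Izumo1r was -0.26 (SE 0.084, adjusted p = 0.501) and for Pou2af1 0.80 (SE 0.236, adjusted p = 0.456). Neither for this gate nor for the interaction is the share of all genes below that unadjusted p given here. Of the other Tfh pathway genes 1 of 31 was lower and 0 were higher, and of the opposing genes 1 of 19 was higher and 0 were lower. With the mouse and organ as a block, 49 of all 11535 genes tested were lower and 32 higher. For the pathway genes the block gave 3 lower and 1 higher, and for the opposing genes 4 higher and 0 lower. The 6 genes that gained a call under the block were Batf, Id3, Il6ra, Il7r, Klf2 and S1pr1 (adjusted p of 0.00844, 0.00216, 0.00536, 0.00119, 0.0212 and 0.0188, against 0.555, 0.501, 0.150, 0.153, 0.382 and 0.200).

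A few other pathway genes did differ between medLN and MLN. In IL-4eGFP+ cells, 4 of 31 tested Tfh pathway genes rose and 2 fell in medLN (median log2 difference 0.12), and 3 of 19 opposing genes rose and 0 fell (median 0.17). Over all genes tested, 76 rose and 68 fell. Angptl2, a secreted angiopoietin-like protein, was at 22.9 and 24.9 CPM in medLN against 11.3 and 12.7 CPM in MLN (log2 difference 0.97, SE 0.116, adjusted p = 0.01000). The IL-6 receptor gene Il6ra rose by 0.82 (adjusted p = 0.0136) and Irf4, a factor of activated T cells, by 0.81 (adjusted p = 0.0283). Ccr7 rose by 0.71 (SE 0.065, adjusted p = 0.00396), and Id3 fell by 0.62 (SE 0.110, adjusted p = 0.0382). All 5 calls were lost without medLN sample 1 (adjusted p of 0.0522 to 0.240). Without medLN sample 2 those of Angptl2, Il6ra and Id3 were lost (0.0898, 0.100 and 0.371), without MLN sample 2 that of Irf4 (0.0848), and without the filter on low counts those of Il6ra, Irf4 and Id3 (0.0509, 0.0946 and 0.117). After thinning the calls of Angptl2 and Il6ra were lost (adjusted p of 0.270 and 0.0881), and in DESeq2 that of Id3 (adjusted p = 0.0887). Il21, Pdcd1, Tcf7, Prdm1 and S1pr1 did not pass, with log2 differences of 0.20, 0.12, -0.05, 0.17 and 0.56.

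In IL-4eGFP- cells 1 of 28 tested pathway genes passed and 0 of 19 opposing genes. With the mouse as a block the pathway count was 5 higher and 1 lower, against 52 higher and 13 lower of 10684 genes tested. The gene was Tigit, an inhibitory receptor, at 24.5 and 31.4 CPM in medLN against 9.32 and 13.5 CPM in MLN (log2 difference 1.24, SE 0.175, adjusted p = 0.0152), a call lost without the filter on low counts (adjusted p = 0.207), without cells holding a B cell marker (0.381) and after thinning (0.412). In IL-4eGFP+ cells Tigit was at 141 and 152 CPM in medLN and at 187 and 200 CPM in MLN, the opposite order.

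Across the gates of the node run, the 9 genes were all higher in IL-4eGFP+ cells, where 63.0% of 11035 genes tested passed in either direction. The 4 samples of each gate were medLN and MLN of the same 2 mice within 1 library. The model had no term for mouse. Adjusted p values across gates therefore measure spread between these samples, not between libraries or between 4 animals. With mouse and organ as a block, all 9 were also higher. The 4 samples of each gate did not overlap for any of the 9, and each was higher in all 4 pairs of mouse and organ. Such splits were not counted over all genes tested, of which 31.3% passed as higher in IL-4eGFP+ cells. Summed regulatory T cell markers were 124 to 159 CPM in the IL-4eGFP+ and 209 to 288 CPM in the IL-4eGFP- samples. The gap was wider for cells with a UMI of Foxp3, the regulatory T cell factor, after thinning. These were 12, 13, 24 and 24 of 1982 to 2041 cells per IL-4eGFP+ sample. In the IL-4eGFP- samples they were 116, 127, 100 and 120 of 2080 to 2241 cells. Summed proliferation markers were 433 to 569 CPM in the IL-4eGFP+ and 50.1 to 100 CPM in the IL-4eGFP- samples. Ccr7 and S1pr1, receptors of recirculating cells, were lower in the IL-4eGFP+ samples. The part of these in the 9 differences was not tested.

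Of the 8 genes with counts in all 8 samples, Tox2 showed the largest difference. It was at 77.0, 91.6, 127 and 115 CPM in the IL-4eGFP+ samples and at 2.73, 4.52, 4.85 and 5.73 CPM in the IL-4eGFP- samples (log2 difference 4.32, SE 0.106, adjusted p = 6.0e-11). Cxcr5 was at 51.8, 70.1, 90.7 and 71.6 CPM against 7.40, 5.85, 6.46 and 6.11 CPM (log2 difference 3.25, SE 0.141, adjusted p = 1.7e-09). In both genes the lowest IL-4eGFP+ sample lay far above the highest IL-4eGFP- sample. Sostdc1 had 2137 UMIs in the IL-4eGFP+ samples and 1 in the IL-4eGFP- samples, a CPM ratio of 1719 with a counting interval of 308 to 67945. In 3 of the 4 IL-4eGFP- samples it was at 0, for instance in 0 of 2249 MLN cells of mouse 1, which allows a share of up to 0.133% by 3 counts (exact 95% upper limit 0.164%).

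Bcl6 was also found outside the gate. It was at 48.3, 59.4, 67.9 and 53.5 CPM in the IL-4eGFP+ samples and at 23.4, 19.6, 20.1 and 15.0 CPM in the IL-4eGFP- samples (log2 difference 1.35, SE 0.122, adjusted p = 1.0e-06). S1pr2 differed by 1.46 (SE 0.157), from 10.2, 11.6, 13.6 and 10.7 CPM to 3.11, 4.65, 3.11 and 3.69 CPM. Pou2af1 differed by 1.30 (SE 0.157), from 16.6 to 21.9 CPM down to 5.58 to 9.04 CPM, where 1 cell held 21.1% of its UMIs in the highest sample. Of the SLAM genes, Sh2d1a differed by 1.51 (SE 0.051) and Slamf6 by 1.09 (SE 0.040). Slamf6 lay between 288 and 299 CPM in the IL-4eGFP+ and between 117 and 123 CPM in the IL-4eGFP- samples.

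Izumo1r depended on which IL-4eGFP- cells were counted. It was at 678, 713, 782 and 726 CPM in the IL-4eGFP+ samples and at 268, 293, 259 and 229 CPM in the IL-4eGFP- samples (log2 difference 1.27, SE 0.058, adjusted p = 2.8e-09), and the difference was 1.84 once cells with a UMI of Foxp3, the regulatory T cell factor, were left out. Among the 189 to 257 cells with Foxp3 in each IL-4eGFP- sample, 50.8% to 52.9% held Izumo1r at 1000 UMIs. Over all IL-4eGFP- cells the share was 14.9% to 16.5%. The same Foxp3 cells held Sh2d1a in 17.8% to 23.0% and Slamf6 in 11.4% to 16.6%, against 10.1% to 10.6% and 10.3% to 11.7% of all IL-4eGFP- cells.

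For the sparse genes, the IL-4eGFP- samples give a level that free RNA and the cells of that gate share. The median UMI count of their cells was 3268 to 3371, against 3166 to 3666 in the IL-4eGFP+ samples. With all UMIs, Cxcr5 was in 16.0% to 25.4% of IL-4eGFP+ and in 1.66% to 2.40% of IL-4eGFP- cells, and Tox2 in 23.8% to 34.9% and in 0.738% to 1.51%. Pou2af1 was in 6.07% to 7.43% against 1.34% to 2.00%, S1pr2 in 4.42% to 5.82% against 1.06% to 1.67%, and Sostdc1 in 3.89% to 5.94% against 0% to 0.0461%. For each of these 5 genes the ranges of the gates did not overlap. Such splits of shares were not counted over all genes, of which 31.3% of those tested passed as higher in IL-4eGFP+ cells. How much of these low shares came from free RNA and how much from expression in IL-4eGFP- cells was not tested. Each gate was its own library, so this level does not measure free RNA in the IL-4eGFP+ library.

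**Figure D3:**
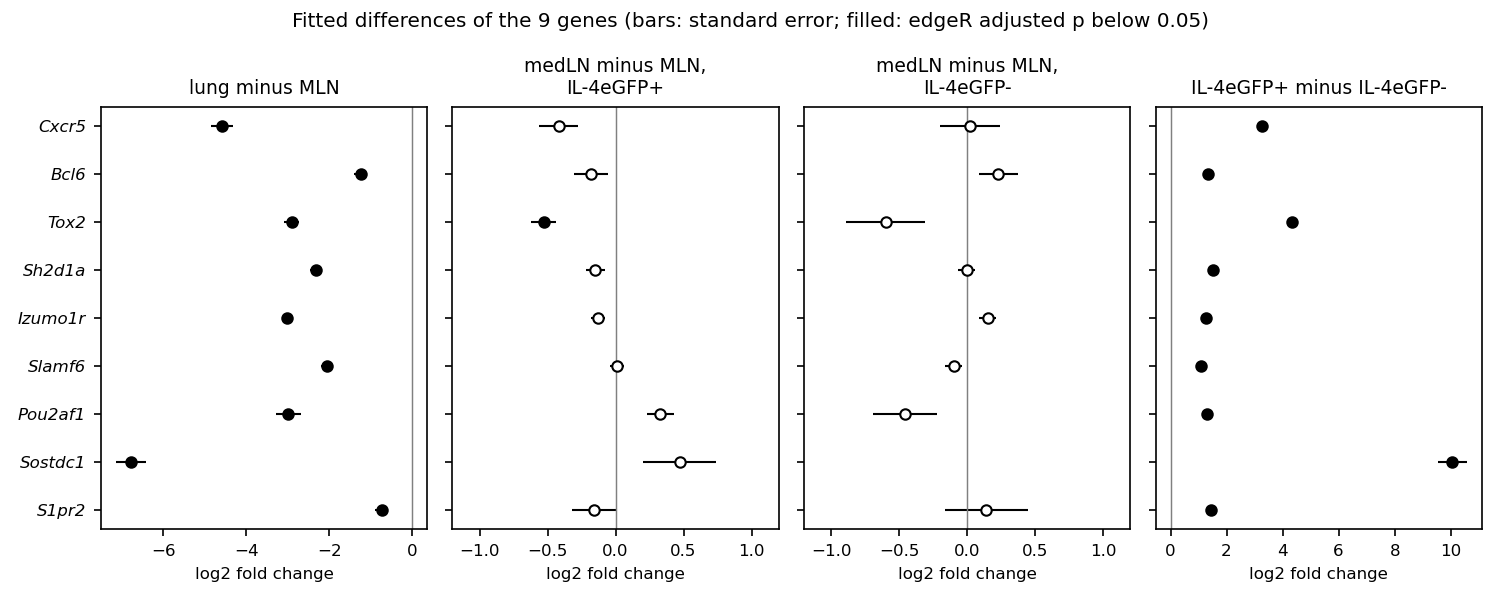
Fitted log2 fold change of each gene in 4 comparisons, with the standard error as bars and filled points where the edgeR adjusted p was below 0.05; the 2 middle panels share a narrower axis, and Sostdc1 was not tested in the third. All 9 points lie left of 0 for lung minus MLN and right of 0 for IL-4eGFP+ minus IL-4eGFP-, where the Sostdc1 value depends on the prior count, while Tox2 is the only filled point between the nodes.

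Of the other Tfh pathway genes tested across the gates, 22 of 31 rose, 7 fell and 2 did not pass in IL-4eGFP+ cells (median log2 difference 0.94), and of the 19 opposing genes 7 rose, 9 fell and 3 did not pass (median -0.01). Over all genes tested 3450 rose and 3504 fell. Il4 itself, the gene behind the gate, had 6681 UMIs in the IL-4eGFP+ and 5 in the IL-4eGFP- samples, a ratio of 1075 with a counting interval of 460 to 3312. For Ascl2 there were 295 and 3 UMIs, a ratio of 79.1 with an interval of 26.8 to 386. Il21 rose by 4.55 (SE 0.286), Angptl2 by 3.48 (SE 0.248), Il1rl1 by 3.43 (SE 0.274), Pdcd1 by 3.17 (SE 0.121), Id3 by 0.68 (SE 0.121) and Prdm1 by 0.57 (SE 0.165). After thinning Prdm1 no longer passed (log2 difference 0.42, adjusted p = 0.219). Ccr7 and S1pr1 went down, with log2 differences of -2.45 and -1.77. Tcf7 passed at -0.16 (SE 0.042, adjusted p = 0.00539) but at 0.19 (adjusted p = 0.00201) after thinning. Its unscaled group means, 513 CPM in the IL-4eGFP+ and 501 CPM in the IL-4eGFP- samples, overlapped and were higher in 3 of 4 pairs, so no direction is read for Tcf7.

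Single IL-4eGFP+ cells held more of the 9 genes in the nodes than in lung. At 1000 UMIs a lung cell held a mean of 0.252 and 0.329 of the 9 genes in the 2 samples, and an MLN cell of the same run 1.58 and 1.54. The IL-4eGFP+ cells of the node run held 1.37 and 1.45 in medLN and 1.53 and 1.5 in MLN, and the IL-4eGFP- cells between 0.393 and 0.426. At least 4 of the genes were found in 5.33% and 3.72% of MLN cells, in 3.67% to 5.8% of IL-4eGFP+ cells of the node run and in 0.0463% to 0.0962% of IL-4eGFP- cells. In lung no cell held 4 at this depth, and the exact 95% upper limits were 0.341% and 0.883%. With all UMIs the shares were 6.01% and 3.37% in lung and 56.6% and 51.2% in MLN, so both rose with depth and lung stayed below MLN. In IL-4eGFP- cells, which were less deeply sequenced, they were 1.75% to 2.26%, below lung, whereas the thinned mean of genes per cell was above lung.

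**Figure D4:**
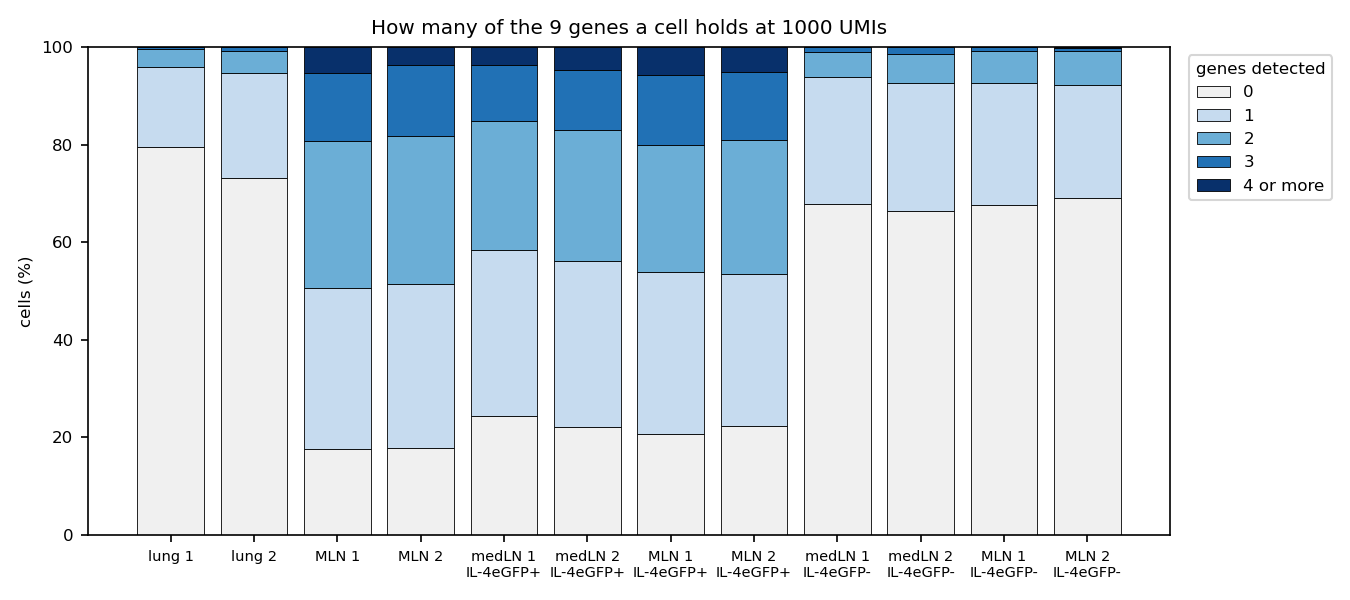
Share of cells, in percent, that held 0, 1, 2, 3 or at least 4 of the 9 genes after thinning to 1000 UMIs, for each of the 12 samples. Cells with none make up 73.1% to 79.6% in lung and 66.3% to 69.1% in the IL-4eGFP- samples, against 17.6% to 24.4% in the 6 IL-4eGFP+ node samples.

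For each of the 36 pairs of the 9 genes, the number of cells with both was set against the number that independence would give. In the 6 IL-4eGFP+ node samples 26 to 33 of the 36 pairs lay above independence at 1000 UMIs, against 13 and 10 in lung and 14 to 19 in the IL-4eGFP- samples, where 15 pairs of lung sample 2 and 8 pairs of each IL-4eGFP- sample gave no value. A pair that no cell held together counted as not above, even where less than 1 such cell was expected. The lower counts in lung and IL-4eGFP- cells therefore cannot be told apart from sparser detection. With all UMIs the counts were 33 to 36 in the 6 samples, 26 and 18 in lung and 24 to 28 in IL-4eGFP- samples. There, 8 pairs gave no value in lung sample 2 and in each IL-4eGFP- sample but medLN sample 1. At 1000 UMIs, Pou2af1 and Sostdc1 were together 2.67 to 6.97 times as often as independence gave, Bcl6 and Sostdc1 1.91 to 3.49 times, Cxcr5 and Tox2 1.48 to 2.35 times, and Cxcr5 and Bcl6 1.38 to 2.04 times. Each of these 4 pairs was above 1 in all 6 samples. Per sample, Pou2af1 was in 12 to 41 and Sostdc1 in 27 to 92 cells, so ratios with these 2 genes rested on few cells. Pairs of the more widely detected genes stayed near 1, such as Sh2d1a and Izumo1r at 1.08 to 1.16. A ratio cannot exceed the inverse of the commoner gene's share of cells. Pairs of widely and of rarely detected genes therefore cannot be ranked by it. Slamf6 and Pou2af1 were above 1 in 1 of the 6 samples, with values of 0.330 to 1.06. Cells of a sample share a library, and these ratios are descriptions.

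Cells with a UMI of Pdcd1 held more of the 9 genes in each IL-4eGFP+ node sample, and in lung the samples went opposite ways. In the 6 IL-4eGFP+ node samples, 124 to 412 cells per sample had a Pdcd1 UMI at 1000 UMIs and held a mean of 1.93 to 2.15 of the 9 genes, against 1.30 to 1.5 in the other cells. Cxcr5 was in 14.1% to 23.4% of cells with Pdcd1 and in 5.03% to 10.1% of those without, and it was higher with Pdcd1 in 6 of 6 samples. Sostdc1 was in 9.71% to 16.1% against 1.11% to 3.57%, also higher in 6 of 6. Of the 9 genes, only Slamf6 was not, being higher in 3 of 6. In lung sample 1, 208 cells with Pdcd1 held a mean of 0.159 of the 9 genes against 0.274 in the others. Cxcr5 was found in only 1 of all 1081 cells of that sample, so its absence from these 208 cannot be read. In lung sample 2, 44 cells with Pdcd1 held 0.364 against 0.325.

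**Figure D5:**
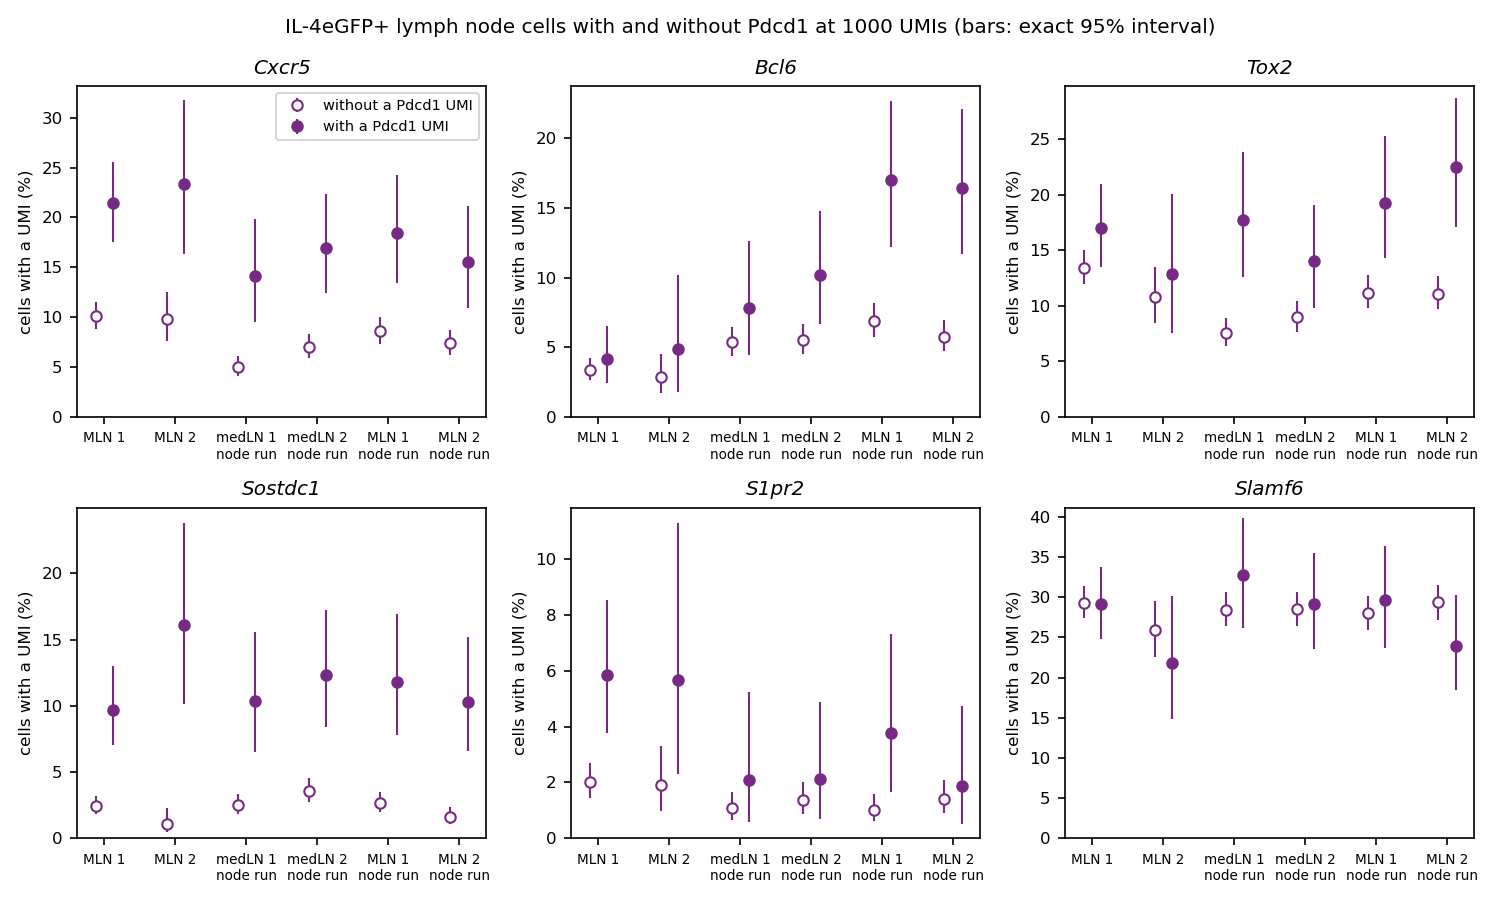
Share of cells, in percent, with a UMI of each of 6 genes at 1000 UMIs per cell, among cells with (filled) and without (open) a Pdcd1 UMI, in the 2 MLN samples of the lung and MLN run and the 4 IL-4eGFP+ samples of the node run; bars are exact 95% binomial intervals, which cover counting error only. Cxcr5, Bcl6, Tox2, Sostdc1 and S1pr2 are higher with Pdcd1 in all 6 samples, and Slamf6 in 3 of 6, though for Bcl6 and S1pr2 the intervals overlap in some samples.

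Cells with the effector Th2 receptor Il1rl1 stood at the other end. In the 6 IL-4eGFP+ node samples there were 10 to 32 such cells at 1000 UMIs, and their mean was 0.100 to 0.704 of the 9 genes against 1.38 to 1.58 in the other cells. None held Cxcr5 or Pou2af1, but Pou2af1 was in only 1.62% to 1.93% of the other cells, so its absence cannot be read. Sostdc1 and S1pr2 were each higher with Il1rl1 in 2 of 6 samples. The same direction was seen in lung, at 0.133 against 0.307 in sample 1 and 0.189 against 0.368 in sample 2. Cells with Gata3, the Th2 factor, held fewer of the genes in all 6 node samples (1.18 to 1.45 against 1.40 to 1.61), and so did cells with the proliferation genes Mki67 or Top2a (0.777 to 1.33 against 1.44 to 1.59). Cells with Il21, 5 to 59 per sample, held more in all 6 (1.71 to 2.46 against 1.36 to 1.57), with Cxcr5 in 16.9% to 33.3% of them against 5.55% to 12% of the other cells. In the IL-4eGFP- samples, cells with Gata3 held more of the genes in 4 of 4. So did cells with Il1rl1, on 2 to 6 cells, and those with Mki67 or Top2a in 3 of 4.

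Genes whose pattern over the 12 samples was most like that of the program were listed by the root mean square difference of log2(CPM + 1), centred within each run. This ranked 5801 genes that averaged 20 CPM or more. The nearest to Cxcr5 were Smtn at 0.387, H2-Q2 at 0.507, Tox2 at 0.716, Cd160 at 0.759 and Gpm6b at 0.906. The nearest to Bcl6 were Slc26a11 at 0.170, Gstt2 at 0.183, 2310001H17Rik at 0.188, Syt11 at 0.203 and Itgal at 0.204. For the mean of the 9 genes they were Cd200 at 0.350, Plekho1 at 0.389, Cd160 at 0.490, Slc26a11 at 0.498 and Gpm6b at 0.508. Of these, Tox2 was among the 9 genes and Cd200 among the other Tfh pathway genes.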

How the data were processed

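Per the labels and the study's methods, the authors sorted CD4+ cells, prepared 10x Chromium 5′ libraries and aligned them to mm10 (GRCm38). The submitters' notes name Cell Ranger 2.1.1 and 3.0.1 for the lung and MLN run and 6.1.2 for the node run. The deposited values were UMI counts per gene and barcode, hashtag counts per barcode and a table of T cell receptor contigs. No column lacked a sample (0).

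Barcodes with at least 500 UMIs and 500 genes, at most 7% mitochondrial UMIs and a log10 genes to log10 UMIs ratio of at least 0.8 were kept, and in the lung and MLN run also a productive alpha and beta chain. Node samples were called from hashtags with Seurat 5.3.0, and hashtag doublets were left out (1256 in the IL-4eGFP+ and 1280 in the IL-4eGFP- library). Scrublet (scanpy 1.11.5) marked 0% to 0.111% of cells in 5 of 6 libraries and therefore did not work there, and no cell was left out by it. Libraries shared 0 to 147 barcodes, at most 1.57% of the smaller. UMI counts were summed per sample and tested with edgeR 4.0.16 in R 4.3.3 (filterByExpr, TMM, glmQLFTest, Benjamini-Hochberg over all genes tested, threshold 0.05). DESeq2 1.42.0 was an alternative. Shares have exact Clopper-Pearson 95% intervals (scipy 1.17.1). A count of 0 was read as up to 3 counts. Intervals and floors cover counting error only, and each group held 2 mice. Alternatives were DESeq2 size factors, no filter, a replicate block, each sample left out, Scrublet cells, B cell marker cells, Foxp3 cells or proliferating cells left out, and thinning. Leaving out cells with over 1 beta or over 2 alpha chains was chosen after seeing the data. On simulated data with 192 to 199 changed genes per comparison, at a log2 fold of 2, the test found 182 of 195 for lung against MLN, 189 of 193 and 198 of 199 for the nodes and 192 of 192 across gates, with 3 to 6 false calls.

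The pairs came from the same mouse by the labels. Their deviations correlated at 0.0398 for lung and MLN, 0.235 and 0.117 for the nodes and 0.155 and 0.179 across gates. The 9 genes, the 32 pathway genes, the 19 opposing genes and the marker lists were chosen with earlier results of these data known. From the pathway and opposing lists, the 5 with the largest fold among those that passed were named in each comparison, plus Il21, Pdcd1, Tcf7, Id3, Prdm1, Ccr7 and S1pr1. Some results are not reported here. T cell receptor genes were left out of the sums. A clone shared V, J and nucleotide CDR3 of all productive chains. Promoters came from RefSeq (GRCm38.p6).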

Additional observations from a re-analysis of the deposited data

Results flagged for a closer look

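Sostdc1 was at 0.130 CPM in medLN sample 1 of the IL-4eGFP- gate and at 0 in the other 3 samples of that gate, which set this sample apart from its group. The value was 1 UMI, below the 0.389 CPM that 3 counts give there, so it cannot be told from the zeros, and 18 groups of 4 samples were examined in this way, of which chance sets about 1 in 20 apart.

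The difference between medLN and MLN was not the same in both gates for 2 of the genes named from the pathway and opposing lists, by the interaction test of edgeR. For Tigit the interaction was -1.65 (SE 0.199, adjusted p = 0.0130), with lower levels in medLN among IL-4eGFP+ cells and higher levels in medLN among IL-4eGFP- cells in both mice. It was lost without MLN sample 2 of the IL-4eGFP+ gate (adjusted p = 0.0632), without medLN sample 2 of the IL-4eGFP- gate (adjusted p = 0.0739), without cells holding a B cell marker (adjusted p = 0.0508) and after thinning (adjusted p = 0.381). For Ccr7 the interaction was 0.77 (SE 0.072, adjusted p = 0.00267), with 91.5 and 89.5 CPM in medLN and 55.5 and 54.6 CPM in MLN among IL-4eGFP+ cells, and 349 and 333 CPM against 349 and 332 CPM among IL-4eGFP- cells. It was lost after thinning (adjusted p = 0.0620).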

How the results depend on the processing

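Over the alternatives run, 8 or 9 of the 9 genes passed for lung against MLN, 9 across gates, 0 or 1 between nodes in IL-4eGFP+ cells, and 0 in IL-4eGFP- cells and in the interaction. Counts over all genes (3284, 144, 6954 and 18 passed for lung, the IL-4eGFP+ nodes, the gates and the interaction) moved more. For lung against MLN, 1833 genes passed in DESeq2, 1447 after thinning, and 1907 to 3678 with 1 sample left out, the lowest without MLN sample 1. Between nodes in IL-4eGFP+ cells, without the filter on low counts 47 genes and 0 of the 9 passed, 236 genes passed without cells holding a B cell marker, 35 after thinning and 13 to 191 with 1 sample left out, the lowest without medLN sample 1. With any 1 sample left out 0 of the 9 passed. In IL-4eGFP- cells the counts were 2 without the filter, 9 without B cell marker cells, 7 after thinning and 98 to 194 with 1 sample left out, the highest without medLN sample 1, against 19 with all samples. Across gates 3768 genes passed after thinning. For the interaction 37 passed in DESeq2, 68 without the filter, 4 after thinning and 4 to 13 with 1 sample left out. With the replicate block (mouse, or mouse and organ in the interaction), 65 genes passed between nodes in IL-4eGFP- cells and 81 in the interaction, and no call of the 9 genes changed. Where 1 sample was left in an arm, it was assumed to vary like the others. The cause of these shifts was not tested, except that thinning removes counts and leaving out a sample removes samples.

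Signs changed for Tcf7 across gates (0.19 after thinning) and Pdcd1 for lung against MLN (-0.73 to 0.74 with 1 sample left out), and otherwise for differences that did not pass. Between nodes in IL-4eGFP+ cells, thinning gave -0.01 for Pdcd1 and -0.20 for Prdm1, and leaving out 1 sample gave -0.02 to 0.04 for Slamf6, -0.06 to 0.87 for Sostdc1, -0.09 to 0.30 for Pdcd1, -0.32 to 0.01 for S1pr2, -0.11 to 0.01 for Tcf7 and -0.07 to 0.48 for Prdm1. In IL-4eGFP- cells, Sh2d1a was 0.004 without B cell marker cells, and leaving out 1 sample gave -0.16 to 0.18 for Cxcr5, -0.02 to 0.01 for Sh2d1a, -0.18 to 0.40 for S1pr2, -0.19 to 0.40 for Pdcd1 and -0.23 to 0.16 for Id3. In the interaction, thinning gave -0.10 for Tox2 and 0.47 for Sostdc1, and leaving out 1 sample gave -0.25 to 0.48 for Tox2, -2.96 to 0.47 for Sostdc1, -0.56 to 0.03 for S1pr2 and -0.29 to 0.31 for Pdcd1. With all UMIs, 26 and 18 pairs of genes lay above independence in lung samples 1 and 2, 24 in medLN sample 2 and 28 in MLN sample 2 of the IL-4eGFP- gate. Over all log2 values under an alternative, 1140 kept their direction and side of the threshold, 31 lost and 9 gained a call, and 30 changed sign. Leaving out Scrublet cells removed no cell from any node sample. Those refits repeated the main fit, could not change a value, and are counted among the 1140.

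With 2 mice a group, a difference that missed the threshold is not shown to be absent. Sostdc1 and Pou2af1 in lung rested on few UMIs, and shares of cells moved with depth, so levels and thinned shares are the firmer values.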

Other observations

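Among IL-4eGFP- cells, those with Foxp3 held Cxcr5 in 4.76% to 5.84% and Tox2 in 3.11% to 5.29% with all UMIs, against 1.66% to 2.40% and 0.738% to 1.51% of all IL-4eGFP- cells, although Foxp3 cells had fewer UMIs (medians of 2768 to 3158 against 3268 to 3371). Bcl6, at 3.70% to 6.36%, overlapped its range over all IL-4eGFP- cells (4.85% to 7.38%), Pou2af1 was at 0% to 0.862% against 1.34% to 2.00%, and Sostdc1 was in none of the Foxp3 cells of the 4 samples. These shares were not tested.

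In the 6 IL-4eGFP+ node samples, cells with Il4 transcripts, 188 to 680 per sample, held more of the 9 genes (means of 1.51 to 1.83 against 1.35 to 1.52), and Slamf6 was higher in them in 2 of 6 samples. Exocrine pancreas transcripts summed to 99.3 CPM in MLN sample 2 of the lung and MLN run.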
